A study of Arabidopsis thaliana with 4 samples.

Results

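CBF and COR genes form the best known cold-response pathway of Arabidopsis thaliana. CBF1, CBF2 and CBF3 encode transcription factors of the AP2 family that appear soon after a drop in temperature and bind a short promoter element, the C-repeat, of the COR genes. The COR (cold-regulated) genes encode hydrophilic proteins that protect membranes and proteins during freezing and water loss, and several of them also respond to abscisic acid. COR27 and COR28 stand apart from that group: they respond to cold, are expressed mainly in the evening under the circadian clock and blue light, and act as repressors of clock genes. The members described here are these 10 loci, taken by locus identifier from the 30361 gene models on the array, and all 10 were measured.

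The tested plants were TEKi seedlings, T3 plants that carry an artificial microRNA (amiTEK) against TEK and flower late. Their controls were wild-type seedlings with normal flowering time. Both groups were of the accession Ler (Landsberg erecta), were grown on MS medium plates and were sampled as seedlings on day 7 after germination. The sources used here give no promoter for the microRNA, no number of transgenic lines, no growth temperature and no hour of harvest. RNA from 2 cultures of each group was hybridised to single-colour (Cy3) NimbleGen arrays, 1 array for each culture. The labels call the cultures of a group separate, but the descriptions of all 4 samples use the same wording for a first wild-type replicate, so the replicate numbers rest on the titles. The labels describe no cold treatment.

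The deposited data exist in 2 forms that disagree about 2 of the 4 arrays. Wild type 1 and TEKi 2 hold the same array in both forms. In the series value table, the column of TEKi 1 holds the array filed as wild type 2, while that of wild type 2 holds the array filed as TEKi 1. Over the genes of the array, which do not replicate each other, log2 intensities correlated at a Pearson's r of 0.972 between wild type 1 and the array filed as TEKi 1, and 0.974 between TEKi 2 and the array filed as wild type 2. It was 0.930 between the arrays filed as TEKi and 0.934 between those filed as wild type. TEK itself had intensities of 9864 and 13770 on the arrays filed as TEKi 1 and 2, against 13406 and 14118 on those filed as wild type 1 and 2, with overlapping groups. By the value table it had 14118 and 13770 in the arrays labelled TEKi, against 13406 and 9864 in those labelled wild type, so the targeted transcript went against those labels. Neither set of labels showed a knockdown of TEK on these arrays. FLC, the repressor of flowering, had 15709 and 314 on the arrays filed as TEKi, against 30904 and 767 on those filed as wild type. Its 2 dim arrays were those that the value table labels TEKi, where its log2 difference was -5.49 (adjusted p = 0.0624 by limma), although TEKi plants are labelled late flowering. FWA, another gene used to check the labels, had 37534 and 111 on the arrays filed as TEKi 1 and 2. On those filed as wild type 1 and 2 it had 39799 and 350. It was thus bright on wild type 1 and dim on TEKi 2, whose labels agree in both forms. By the value table limma called it lower in TEKi, at a log2 difference of -7.61. Which set of labels is right, or whether either is, cannot be told from these values. Every direction below is one between arrays of a given label. The array-file labels come first for each gene, followed by the value-table labels. Green-tissue marker genes were bright on all arrays, with a summed intensity of 361447 and 375294 in the files of TEKi and 358770.0 and 351679 in those of wild type. None of the 6 flower markers was listed at 0, and their sum, carried mostly by SEP3, was 26384 and 16211 in TEKi files against 44009 and 53849 in wild-type files. Of these markers 4 of 6 were lower in both TEKi files, beside 14.7% of all genes. With the value-table labels 0 were lower in both TEKi arrays, beside 17.1% of all genes, and 1 was higher, beside 27.7%. The part of these markers in the results below was not tested.

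No member passed the test under either set of labels. With the array-file labels, limma called 0 of the 10 members at an adjusted p of 0.05, beside 0% of the 30352 genes tested. An unadjusted p under 0.05 was reached by 2 members, COR15B and COR28, both higher in TEKi, beside 2.37% of all genes in that direction. It was reached by 0 members in the other direction, where 2.24% of all genes lay. Without moderation of the variances 0 members were called too, and again 2 had an unadjusted p under 0.05, beside 4.53% of all genes in either direction. That number was 4 with a replicate block (beside 7.19% of all genes) and 4 with a mean-variance trend (3.16%). It was 3 with quantile normalization (4.48%) and 3 without genes at the highest deposited intensity (4.49%). With median centring (4.46%), a pseudocount of 50 (4.35%) or the dimmest quartile of genes left out (3.86%) it stayed at 2. The log2 difference, TEKi minus wild type, was above 0 for 8 members, beside 50.8% of all genes. Both TEKi arrays lay above both wild-type arrays for 6 members (COR15A, COR15B, COR47, RD29A, COR27 and COR28), beside 15.3% of all genes, and below them for KIN1 alone, beside 14.7%. The median difference was 1.02 over the members and 0.01 over all genes. These counts describe a list assembled with earlier results of the data known and are no test of it.

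With the value-table labels, limma again called 0 of the 10 members, beside 2.22% of all genes, 0.273% higher and 1.95% lower in the arrays labelled TEKi. The count at an unadjusted p under 0.05 was 0 as well, beside 7.50% of all genes higher and 6.94% lower. Without moderation of the variances both counts were 0, beside 11.42% of all genes at an unadjusted p under 0.05 in either direction. The unadjusted count was 1 with a replicate block (beside 14.74% of all genes) and 1 with a mean-variance trend (14.31%). It stayed at 0 with quantile normalization (14.88%), median centring (14.46%) and a pseudocount of 50 (14.66%). Leaving out the dimmest quartile of genes (16.54%) or genes at the highest deposited intensity (14.40%) kept it at 0 too. A log2 difference above 0 was found for 7 members, beside 60.3% of all genes. Both TEKi arrays lay above both wild-type arrays for CBF1 and CBF2 only, beside 27.7% of all genes. They lay below for no member, beside 17.1%. The median log2 difference was 0.48 over the members and 0.09 over all genes. The same arrays enter both sets of comparisons, so the 2 sets are alternative readings of 1 experiment and not independent of each other.

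**Figure D1:**
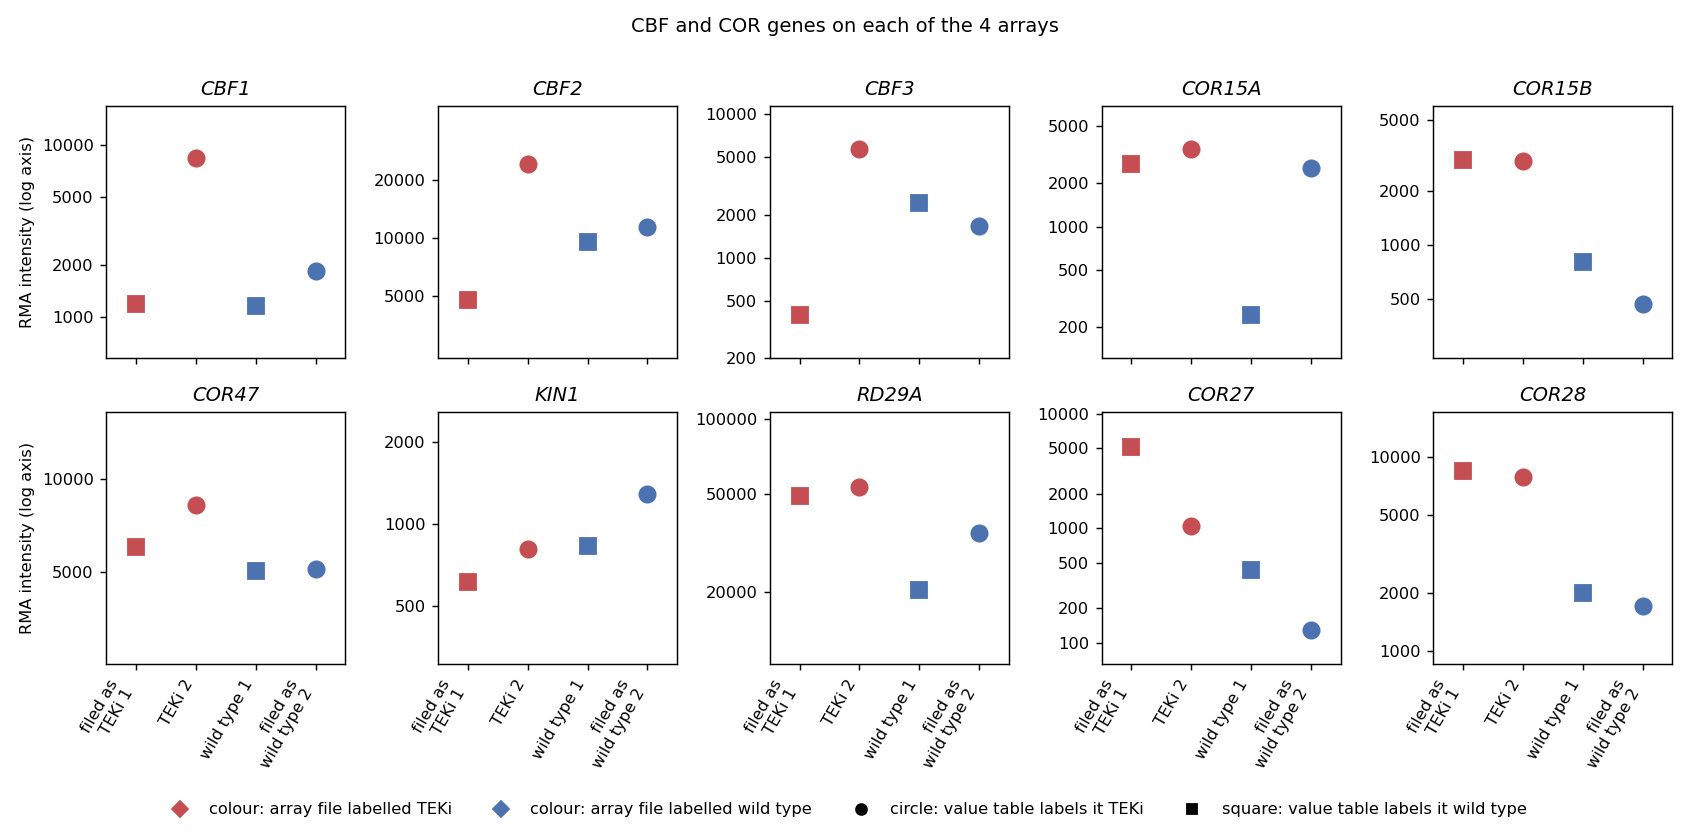
Deposited RMA intensity (log axis) of each of the 10 genes on the 4 arrays, 1 point for each array. Red points are arrays filed as TEKi and blue points arrays filed as wild type, while circles are arrays that the value table labels TEKi and squares those it labels wild type. COR15A, COR15B, COR47, RD29A, COR27 and COR28 separate by colour with red above, and KIN1 with red below. CBF1 and CBF2 separate by shape with circles above. COR47 spans the narrowest range, 1.64-fold.

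The 1 comparison whose labels are the same in both deposited forms is TEKi 2 against wild type 1, which was chosen after the data were seen. That agreement does not show that these labels are right. It has 1 array on each side and therefore no replicate check and no p. These arrays stand far apart across the genome: their r of 0.929 was the lowest of the 6 pairs of arrays, but by little. The arrays filed as TEKi were at 0.930, those filed as wild type at 0.934, and those filed as TEKi 1 and wild type 2 at 0.930. FLC was at 314 on TEKi 2 and 30904 on wild type 1, although TEKi plants are labelled late flowering. FWA was at 111 on TEKi 2 and 39799 on wild type 1. TEK, the targeted transcript, was at 13770 on TEKi 2 and 13406 on wild type 1, so this pair showed no knockdown either. What part the distance between these arrays had in the members' values was not tested. On TEKi 2, 8 of the 10 members were over 2-fold brighter than on wild type 1, beside 11.0% of all genes, and 0 were over 2-fold dimmer, beside 10.6%. The median log2 difference of the members was 1.36, against 0.07 over all genes. COR15A differed most, with 3458 on TEKi 2 and 244 on wild type 1 (14.2-fold), followed by CBF1 with 8439 and 1156 (7.30-fold). COR28 was 3.98-fold, COR15B 3.69-fold, RD29A 2.59-fold, CBF2 2.56-fold, COR27 2.43-fold and CBF3 2.36-fold brighter on TEKi 2. COR47, at 8220.5 and 5008, differed 1.64-fold, and KIN1, at 806 and 833, differed by a factor of 0.967. Brighter by any margin were 9 members, beside 56.7% of all genes. The other pair gave a different picture. On the array filed as TEKi 1, set against the array filed as wild type 2, 3 members were over 2-fold brighter (COR27, COR28 and COR15B; beside 10% of all genes). In the same pair 3 were over 2-fold dimmer (CBF2, CBF3 and KIN1; beside 11.1% of all genes), and 6 were brighter by any margin, beside 43.1%. By the value table the direction of this second pair turns round.

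**Figure D2:**
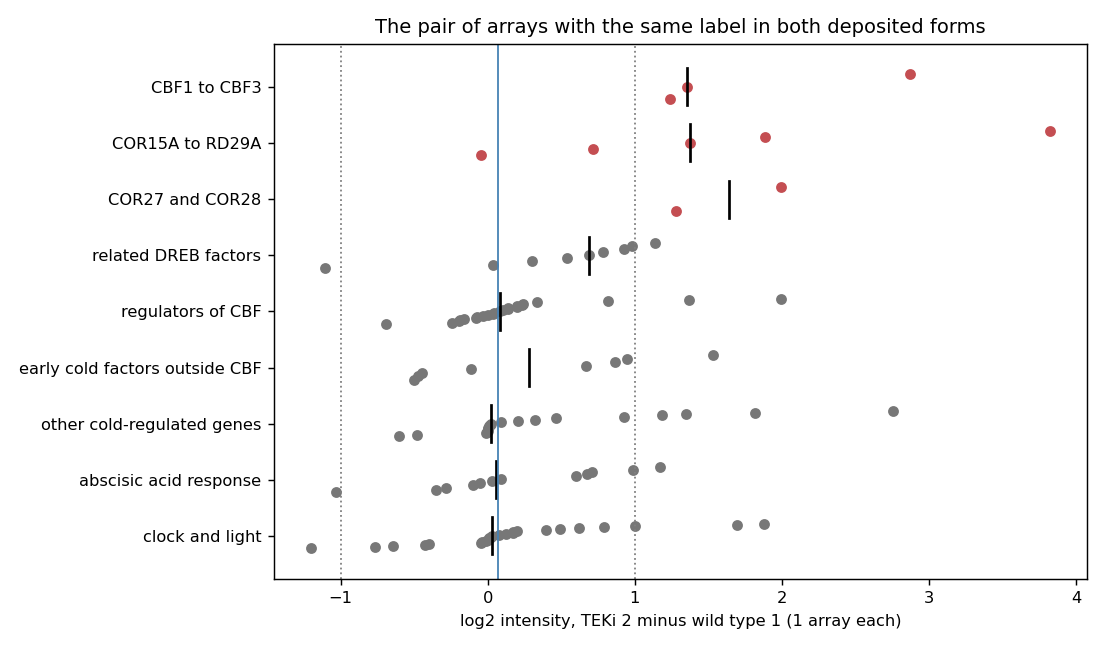
Log2 intensity on TEKi 2 minus that on wild type 1, 1 array each, for the CBF and COR genes (red) and for 6 lists of related genes (grey), 1 point for each gene. Short black lines are list medians, the blue line is the median of all genes (0.07), and the dotted lines mark 2-fold. Of the 10 red points, 8 lie right of the upper dotted line.

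CBF1, CBF2 and CBF3 lie in tandem on chromosome 4 in the order CBF2 (AT4G25470, 13015287 to 13016230), CBF3 (AT4G25480, 13018224 to 13019131) and CBF1 (AT4G25490, 13021790 to 13022735), in the coordinates of genome release 6 that the array annotation uses. They encode closely similar proteins, each model rests on 2 probe pairs, and how far one gene's transcript binds another's probes cannot be read from the files. CBF1 had intensities of 1183 and 8439 on the arrays filed as TEKi 1 and 2, against 1156 and 1855 on those filed as wild type 1 and 2. It was high on TEKi 2 alone and lay within a narrow range on the other 3 arrays. The log2 difference was 1.11 (SE 1.15, adjusted p = 1 by limma) with the array-file labels. It was 1.76 (SE 0.839, adjusted p = 0.486) with the value-table labels, under which the groups did not overlap.

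CBF2 had 4778 and 24298 on the arrays filed as TEKi 1 and 2, against 9506 and 11461 on those filed as wild type. The TEKi files thus held both its lowest and its highest value, and the log2 difference was 0.05 (SE 0.935, adjusted p = 1 by limma). Under the value-table labels its TEKi values of 11461 and 24298 lay above its wild-type values of 9506 and 4778, by 1.31 on the log2 scale (SE 0.575, adjusted p = 0.451). CBF3 had the widest range of the 3, 14.3-fold, with 399 and 5717 on the arrays filed as TEKi 1 and 2 against 2423 and 1676 on those filed as wild type. The value of 399 lay below the lowest quartile of intensities on its array. The log2 difference was -0.42 (SE 1.52, adjusted p = 1 by limma) with the array-file labels and 1.65 (SE 1.20, adjusted p = 0.653) with the value-table labels, and the groups overlapped under both.

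The 3 CBF genes shared their highest array, TEKi 2, but not their lowest. The lowest was wild type 1 for CBF1 and the array filed as TEKi 1 for CBF2 and CBF3. Likeness of profiles was measured as the root mean square difference, over the 4 arrays, between log2 intensities from which each gene's own mean was subtracted, so that 0 is an identical shape. This distance was 0.58 between CBF1 and CBF2, 0.64 between CBF2 and CBF3 and 0.94 between CBF1 and CBF3. SOC1, a floral promoter that also represses CBF genes, likewise had its highest value on TEKi 2, with 6778 and 23551 on the arrays filed as TEKi against 9107 and 20772 on those filed as wild type. FWA, a homeobox gene 15634 bases beyond CBF1 on chromosome 4, had 37534 and 111 on the arrays filed as TEKi 1 and 2, against 39799 and 350 on those filed as wild type, a span far wider than that of its CBF neighbours and with its lowest value on TEKi 2. RS40, the gene model next to CBF1, had 48409 and 59209 against 61089 and 61656. ABCB28, next to CBF2 on the other side, had 44830 and 53308 against 52092 and 61805.

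COR15A and COR15B are adjacent paralogs on chromosome 2 (AT2G42540, 17718115 to 17719399, and AT2G42530, 17716114 to 17717023) whose products protect chloroplast membranes during freezing. COR15A had intensities of 2714 and 3458 on the arrays filed as TEKi 1 and 2, against 244 and 2544 on those filed as wild type 1 and 2. Wild type 1 alone was low, at a value below the lowest quartile of its array, and the other 3 arrays differed little. The log2 difference was 1.96 (SE 1.33, adjusted p = 1 by limma) with the array-file labels, where leaving out wild type 1 lowered it to 0.27. It was 1.87 (SE 1.33, adjusted p = 0.647) with the value-table labels, where leaving out wild type 1 lowered it to 0.13.

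COR15B had a different distribution from its neighbour. Its intensities were 3015 and 2979 on the arrays filed as TEKi against 808 and 466 on those filed as wild type, with both TEKi files far above both wild-type files. The log2 difference was 2.29 (SE 0.350, unadjusted p = 0.0054, adjusted p = 1 by limma over all genes). By the value table each group held a bright and a dim array, for a log2 difference of -0.41 (SE 1.25, adjusted p = 0.934). The distance between the profiles of the 2 paralogs was 1.49, larger than that between any pair of CBF genes.

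COR47 (AT1G20440, chromosome 1, 7084399 to 7085762), a dehydrin, varied least of all members. Its intensities were 5994 and 8220.5 on the arrays filed as TEKi 1 and 2, against 5008 and 5084 on those filed as wild type. Both TEKi files lay above both wild-type files, by 0.48 on the log2 scale (SE 0.240, adjusted p = 1 by limma), and the value-table difference was 0.24 (SE 0.318, adjusted p = 0.820). ERD10, the dehydrin gene beside it, had 24025 and 19734 against 29963 and 17653, with overlapping groups.

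RD29A (AT5G52310, chromosome 5, 21258075 to 21260839), a gene used widely as a reporter of cold, drought and abscisic acid, had 48848 and 53239 on the arrays filed as TEKi 1 and 2, against 20527 and 34856 on those filed as wild type. The log2 difference was 0.93 (SE 0.342, adjusted p = 1 by limma) with groups that did not overlap, and 0.44 (SE 0.547, adjusted p = 0.804) with the value-table labels, under which they did. RD29B, its tandem neighbour and mainly a target of abscisic acid signalling, had the same order of arrays, at 10847 and 14526 against 5706 and 9338. No member reached the highest deposited intensity of 64046.8, at which values are cut off, but RD29A came closest.

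KIN1 (AT5G15960, chromosome 5, 5209901 to 5210730), which encodes a small hydrophilic cold-induced protein, was the 1 member lower in both TEKi files. It had 612 and 806 there against 833 and 1284 in the wild-type files, a log2 difference of -0.56 (SE 0.330, adjusted p = 1 by limma). The nearest values of the groups, 806 and 833, were close to each other. By the value table the log2 difference was 0.51 (SE 0.340, adjusted p = 0.621). KIN2, the close paralog next to it, had 21343 and 38368 against 10909 and 32750, so wild type 1 was its lowest array while for KIN1 it was the array filed as TEKi 1. Whether transcripts of one bind the probes of the other was not tested.

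**Figure D3:**
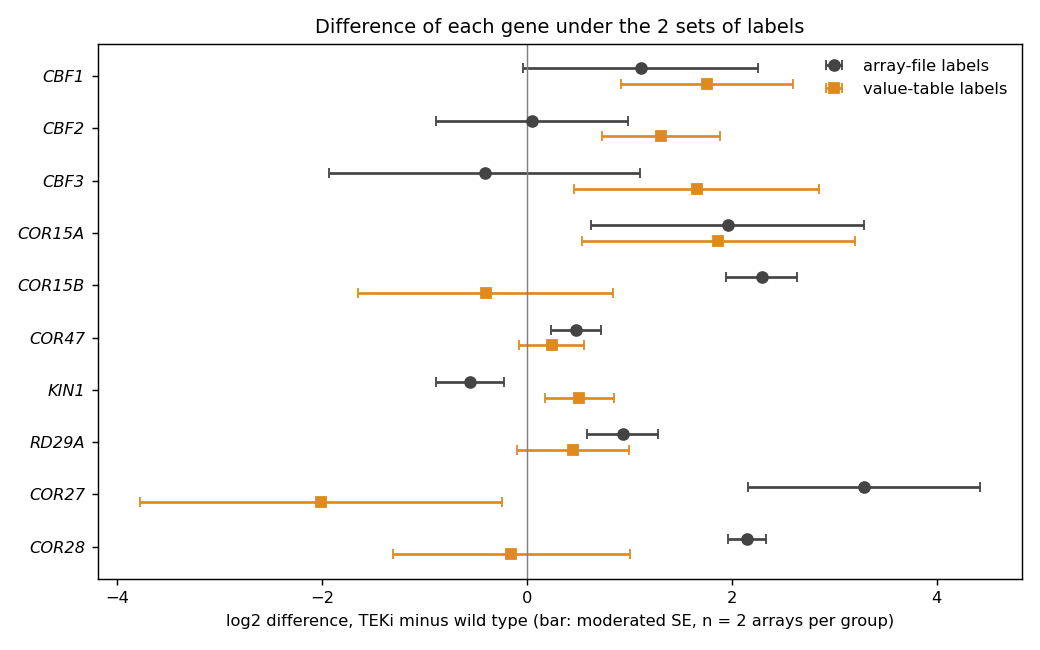
Log2 difference, TEKi minus wild type, of each gene with the array-file labels (grey circles) and with the value-table labels (orange squares); bars are the moderated standard error, with 2 arrays in each group. COR28, COR15B and COR27 lie at 2.15, 2.29 and 3.29 with the array-file labels and at or below -0.16 with the value-table labels, whereas the 3 CBF genes lie further right with the value-table labels.

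COR28 (AT4G33980, chromosome 4, 16282801 to 16285063) had intensities of 8460.0 and 7883 on the arrays filed as TEKi 1 and 2, against 1979 and 1713 on those filed as wild type 1 and 2. The 2 arrays of each file label lay close together and the groups were far apart, which gave the smallest SE among the members. The log2 difference was 2.15 (SE 0.185, unadjusted p = 0.000875, adjusted p = 1 by limma over all genes). Each group then held 1 high and 1 low array under the value-table labels, for a log2 difference of -0.16 (SE 1.16, adjusted p = 0.976).

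COR27 (AT5G42900, chromosome 5, 17214869 to 17217021) spanned 39.5-fold, the widest range of any member. It had 5144 and 1039.8 on the arrays filed as TEKi, against 428 and 130.2 on those filed as wild type, and both wild-type values lay below the lowest quartile of their arrays. The groups did not overlap, although the 2 arrays within each also lay well apart, and the log2 difference was 3.29 (SE 1.13, adjusted p = 1 by limma). By the value table it was -2.01 (SE 1.77, adjusted p = 0.718), and leaving out 1 array at a time gave values between -3.81 and -0.22. COR27 and COR28 shared the order of the 4 arrays, from the array filed as TEKi 1 down to that filed as wild type 2, at a distance of 1.10. COR15B was closer to COR28, at 0.22, the smallest distance among all pairs of members, and COR47 and RD29A were next at 0.37. The largest was 2.89, between CBF3 and COR27.

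Because COR27 and COR28 act within the clock, 25 clock and light genes were set beside them. Among them 0 passed the test under the array-file labels. Both TEKi files lay above both wild-type files for 8 of them and below for 7, beside 15.3% and 14.7% of all genes. At an unadjusted p under 0.05 by limma, 3 were higher and 2 lower, beside 2.37% and 2.24% of all genes. Among the 8 were evening genes: FKF1, a blue-light receptor, with 32763 and 31450 in TEKi files against 9737 and 6469 in wild-type files, and ELF4, of the evening complex, with 13927 and 14978 against 4075 and 4202. LUX, which encodes another component of that complex, had 14829 and 11355 against 6551 and 7871, and TOC1, an evening repressor, had 52966 and 48976 against 34916 and 36706. Among the 7 were genes of the morning: CCA1 had 27660 and 26722 in TEKi files against 61395 and 48069 in wild-type files. PRR9 had 3996 and 15014 against 19826 and 26048, RVE8, an activator of evening genes, 2658 and 4127 against 7005 and 7500, and LHY 4405 and 6191 against 6354 and 15293. The division was not complete: LNK2, a morning gene, was among the 8, with 58211 and 58936 in TEKi files against 51235 and 57983 in wild-type files. ELF3, also of the evening complex, overlapped, with 28463 and 29199 in TEKi files against 28609 and 25582 in wild-type files. PRR5, PRR7 and LNK4 overlapped too. LUX, TOC1, PRR9, RVE8, LHY, LNK2, ELF3, PRR5, PRR7 and LNK4 under these labels were named after their values were seen.

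The clock genes as a list had a median log2 difference of 0.03 with the array-file labels, and none passed under either set. With the value-table labels 5 of the 25 lay higher in both TEKi arrays, beside 27.7% of all genes, and 0 lower, beside 17.1%. An unadjusted p under 0.05 was reached by 1 of the 25, RVE6, which was higher in TEKi, beside 7.50% of all genes in that direction. RVE6 had 26903 and 27680 in the arrays labelled TEKi against 17967 and 18253 in those labelled wild type (log2 difference 0.59, SE 0.153, adjusted p = 0.243 by limma). HY5 and LHY came next. What part the level of clock genes had in the values of COR15B, COR27 and COR28 was not tested.

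**Figure D4:**
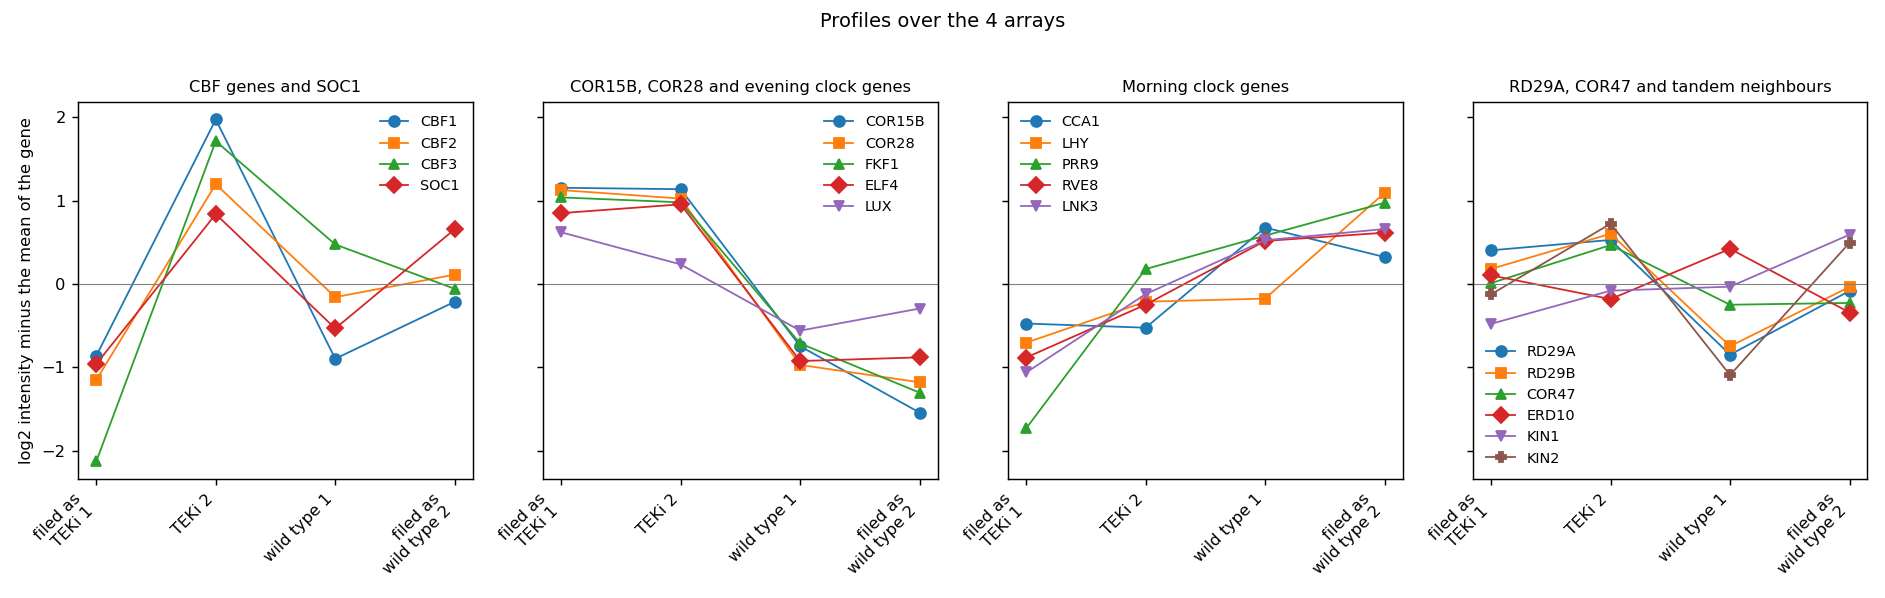
Log2 intensity minus each gene's own mean over the 4 arrays, with the arrays in the same order in every panel; lines join the arrays of a gene and carry no sequence in time. The CBF genes peak on TEKi 2, COR15B and COR28 are drawn with FKF1, ELF4 and LUX, which are also higher in both TEKi files. CCA1, LHY, PRR9, RVE8 and LNK3, picked after their values were seen, are lower there, and KIN1 and ERD10 run apart from KIN2 and COR47, their tandem neighbours.

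Regulators of CBF genes included the bright ICE1 and HOS1, whose values lay close together on all arrays. ICE1, the activator of CBF3 in the cold, had 32686 and 37232 in TEKi files against 33794 and 41030 in wild-type files. HOS1, the ligase that degrades ICE1, had 36520 and 39320 against 38114 and 41963. Of the 23 regulators, 0 passed with either set of labels. With the array-file labels none had an unadjusted p under 0.05, beside 2.37% of all genes higher and 2.24% lower. The median log2 difference was 0.06, and the smallest p belonged to MPK3, the relative of ICE1 called ICE2, and PIF3. ICE2 had 4079 and 7365 in TEKi files against 1854 and 4078 in wild-type files. Under the value-table labels the median was 0.04. SOC1 alone of the 23 had an unadjusted p under 0.05, and it was higher in TEKi, beside 7.50% of all genes in that direction. Its log2 difference was 1.49 (SE 0.232, adjusted p = 0.105 by limma), and BZR1 and CPL1 followed it in order of p.

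Transcription factors related to the CBF proteins numbered 9, and 0 of them passed with either set of labels. With the array-file labels 4 lay higher in both TEKi files, beside 15.3% of all genes, and 0 lay lower. DREB2B, a drought-response factor, had 8231 and 8314 in TEKi files against 3787 and 4096 in wild-type files (log2 difference 1.07, SE 0.167, adjusted p = 1 by limma). DREB2C had 4473 and 3740 against 2175 and 1149, and TINY had 15529 and 12496 against 10136 and 9878. In the value table RAP2.1, a repressor that is itself a CBF target, had 14028 and 14405 in the arrays labelled TEKi against 7590 and 4170 in those labelled wild type (log2 difference 1.34, SE 0.360, adjusted p = 0.257). CBF4, the drought-responsive relative, had 607 and 305 there against 209 and 119, and DDF1 had 1881 and 4315 against 2182 and 1192.

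Early cold-induced factors outside the CBF group numbered 8, and 0 passed with either set of labels. Their median log2 difference was -0.33 with the array-file labels and 0.64 with the value-table labels. In the value table ZAT12 had 7984 and 10312 in the arrays labelled TEKi against 5657 and 2542 in those labelled wild type (log2 difference 1.26, SE 0.482, adjusted p = 0.394 by limma), and RAV1 had 39468 and 52078 against 32812 and 21678. MYB73 lay on the other side, with 23206 and 30005 against 40872 and 30802. With the array-file labels HSFC1 had 7215 and 11551 in TEKi files against 4003 and 5551 in wild-type files, while ZAT10 and ZAT6 overlapped between the groups.

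Among 19 other cold-regulated genes 0 passed with either set of labels, and the median log2 difference was 0.07 with the array-file labels and -0.02 with the value-table labels. With the array-file labels 4 lay higher in both TEKi files and 1 lower, beside 15.3% and 14.7% of all genes. XERO2, a dehydrin of the cold response, had 59132 and 49676 in TEKi files against 35928 and 31947 in wild-type files (log2 difference 0.68, SE 0.20, adjusted p = 1 by limma). GOLS2, a galactinol synthase, lay on the other side, with 948 and 1539 against 2152 and 2067. Under the value-table labels 4 lay higher and 4 lower, beside 27.7% and 17.1% of all genes. ELIP2, a light-stress protein of the chloroplast, had 3706 and 2656 in the arrays labelled TEKi against 1400 and 1833 in those labelled wild type, and its relative ELIP1 had 1210 and 2165 against 320 and 788. For KIN2 that difference was 1.22 on the log2 scale (SE 0.405, adjusted p = 0.338).

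Of 12 genes of the abscisic acid response, 0 passed with either set of labels, and the median log2 difference was -0.07 with the array-file labels and 0.18 with the value-table labels. ABI5, a transcription factor of that pathway, had 6304 and 6484 in TEKi files against 3960 and 2467 in wild-type files. RD20, a caleosin, had 6760 and 4728 against 9659 and 18732, and ABI1 overlapped between the files. In the value table RAB18, a dehydrin, had 27220 and 37541 in the arrays labelled TEKi against 18908 and 20024 in those labelled wild type (log2 difference 0.72, SE 0.234, adjusted p = 0.330 by limma). HAI1, a phosphatase, had 8432 and 7411 against 4898 and 2529, and RD26 overlapped.

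The genes of the whole array whose profiles lay nearest to each member were named for the 9 members that spanned at least 2-fold, 3 for each. FKF1 was among the nearest to both COR15B and COR28, at distances of 0.16 and 0.15. AT5G62420, annotated as an oxidoreductase, was the nearest to COR15B at 0.08, followed after FKF1 by AT2G10870. For COR28 the nearest were AT1G41870 at 0.12 and AT1G64410 at 0.13, both below the lowest quartile on all arrays. COR27 had no close neighbour: AT4G39290 lay at 0.40, NUDT24 at 0.57 and the Copia gene AT4G09595 at 0.62. COR15A had TET12 at 0.28, MES8 at 0.32 and XTH13, a gene of cell wall modification, at 0.33.

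Nearest to CBF1 were AT4G23580 at 0.06, AT5G13350 and AT2G16040. CBF2 had UNE14, annotated with calcium binding, at 0.04, then AT5G38370 and LST8-2. CBF3 had GDPD3 at 0.24, PLA2-DELTA at 0.29 and AT1G35210 at 0.30. RD29A had XSP1, a peptidase of the xylem, at 0.04, then AT1G54770 and AT3G24365, and KIN1 had AT1G49060 at 0.02, then AT2G16180 and AT1G34240. Low intensity limits several of these: AT5G13350, AT2G16040, AT5G38370, LST8-2, GDPD3 and all 3 genes nearest to KIN1 lay below the lowest quartile on every array. With 4 arrays many profiles lie close by: 907 genes were within 0.2 of KIN1 and 304 of RD29A, against 45 for CBF2, 11 for CBF1, 6 for COR28, 4 for COR15B and 0 for CBF3, COR15A and COR27.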

How the data were processed

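Per the labels, RNA of 2 TEKi and 2 wild-type seedling cultures was hybridised to 1 single-colour array each. The deposited values are intensities on a linear scale, made by the authors with RMA per the submitters' processing notes, without a version. The deposited error column was not used because its scale is not stated, and no detection flags were used. Each member had 1 gene model. Symbols came from a RefSeq table of another assembly (29976 of 30361 loci matched), and coordinates are those of the array annotation.

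After 9 genes with an exact 0 were left out, log2 intensities of 30352 genes were compared by limma 3.58.1 in R 4.3.3 (lmFit and eBayes, 2-sided, Benjamini-Hochberg over all genes, threshold 0.05), with n = 2 arrays for each group. Each SE belongs to the log2 difference and uses the moderated variance. The number of arrays limits the precision. Each p-value sets a difference against the spread between arrays of the same label, and that spread depends on the disputed labels. The procedure was also run on simulated arrays with known labels, known changes and the same spread for every gene. Spread and labels differ from that in these data, so the run gives no error rate for them.

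Array files gave the main grouping and the series value table the second. The members, the lists and the tests were chosen with earlier results of these data known. All members were named. From each other list up to 3 genes with the smallest unadjusted p under each set of labels were named, and for each member that spanned at least 2-fold, the 3 genes nearest in profile. Genes named besides were chosen after their values were seen. Alternatives were other normalizations, variance models, filters and a pseudocount of 50, a replicate block and leaving out each array. Comparing the level of a member with that of other genes was not run, because intensities of different probes are not on 1 scale. Medians of intensity lay between 5639 and 5814 on the 4 arrays. Probe and promoter sequences were not used here.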

Additional observations from a re-analysis of the deposited data

How the results depend on the processing

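Each group has only 2 arrays, and both the disputed labels and single arrays moved the members' differences. Putting the value table in place of the array files changed the count of genes called to 674 against 0, and gave log2 differences on the other side of 0 for CBF3 (1.65), COR15B (-0.41), KIN1 (0.51), COR27 (-2.01) and COR28 (-0.16). No member was called under any alternative with adjustment; at an unadjusted p of 0.05, 2 members and 1398 genes passed with the array-file labels and 0 members and 4383 genes with the value-table labels. The 674 calls became 0 with a replicate block, 0 when variances were not moderated, 0 without any single array and 1150 with a mean-variance trend; quantile normalization, median centring and the pseudocount kept the direction of all 10 members under each set of labels. The block, the filters and the variance models leave a member's difference as it is by construction and bear only on its error and p. Without single arrays, the array-file difference ran from -0.31 to 2.53 for CBF1, -1.13 to 1.22 for CBF2 and -2.33 to 1.504 for CBF3, with TEKi 2 and the array filed as TEKi 1 as the deciding arrays. It ran from 0.27 to 3.65 for COR15A, 1.89 to 2.69 for COR15B, 0.25 to 0.70 for COR47, -0.87 to -0.25 for KIN1, 0.55 to 1.31 for RD29A, 2.14 to 4.45 for COR27 and 2.04 to 2.25 for COR28. The value-table difference ran from -1.75 to 0.93 for COR15B, -0.11 to 0.59 for COR47, -0.18 to 1.07 for RD29A and -1.26 to 0.95 for COR28, and kept its sign for CBF1 (0.67 to 2.85), CBF2 (0.77 to 1.85), CBF3 (0.35 to 2.95), COR15A (0.13 to 3.60), KIN1 (0.17 to 0.85) and COR27 (-3.81 to -0.22). The cause was not tested. Same-numbered arrays deviated together at r = 0.65 across genes with the array-file labels and 0.11 with the value-table labels. The replicate numbers rest on the titles, and whether same-numbered cultures were handled together was not tested. The main fit left the number out. With the replicate block and array-file labels, the SE was 0.256 for COR27 and 0.184 for COR28, against 1.13 and 0.185 in the main fit. TEKi 2 against wild type 1, a comparison chosen after seeing the data, kept 8 of 10 members over 2-fold brighter with median centring, quantile normalization and a pseudocount of 50. Dim values such as those of COR27 may lie near background, which the files do not mark.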
